A study of Mus musculus with 12 samples.

Results

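Surface markers that stage early B cells were followed across arrays of mouse B-cell progenitors that lacked EBF1 and were given either EBF1 or PAX5. Of 10 listed names, Cd43 is an older name of Spn, so the names stand for 9 genes: Ptprc, Spn, Cd93, Ly6d, Cd24a, Bst1, Enpep, Cd2 and Il2ra. All 19 probe sets whose platform annotation gives 1 of these symbols were taken, out of 45037 on the array, with no filter on level, so each one was tested. The cells were pre-pro-B cells of strain C57BL/6 carrying Ebf1-/-, grown over OP9 feeder cells (a stromal line from mouse bone marrow); the medium held 4% serum, 5 ng/ml interleukin-7 and 10 ng/ml each of Flt3 ligand and stem cell factor. They received a retrovirus carrying GFP alone (MigR1), EBF1 with GFP (Mig-EBF1) or PAX5 with GFP (Mig-PAX5), and 2 days later the GFP-positive fraction was sorted. All 12 arrays therefore share the Ebf1 mutation, the feeder culture and a viral vector. The 4 groups of 3 arrays form 2 sets, with control and EBF1 arrays in the first set and control and PAX5 arrays in the second.

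These proteins are the handles by which flow cytometry divides early B lymphopoiesis. Pre-pro-B cells carry CD45 in its B220 form (Ptprc), CD43 (Spn) and the AA4.1 antigen CD93, with little CD24. Pro-B cells gain CD24, the heat-stable antigen, and then BP-1, the glutamyl aminopeptidase encoded by Enpep, while small pre-B cells lose CD43 and gain CD2 and CD25 (Il2ra). Ly6d marks lymphoid progenitors directed to the B lineage, and BST1 (CD157, BP-3) is an ectoenzyme found on early B cells, myeloid cells and bone marrow stroma. EBF1 and PAX5 are the transcription factors that specify the B lineage and commit cells to it. The arrays measure RNA of sorted populations, so a marker present on fewer cells and a marker with less RNA per cell cannot be told apart, and surface protein was not measured.

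The arrays held fewer independent samples than their number. The robust SD of log2 differences between a first-set and a second-set control was 0.0392 to 0.0942 where their numbers matched and 0.287 to 0.374 where they did not, and each matching pair was counted once. It was 0.0774 between PAX5 arrays 2 and 3, counted as 1 sample, while the remaining pairs of a group gave 0.211 to 0.359. This left 3 control, 3 EBF1 and 2 PAX5 samples, and both comparisons share the 3 control samples. Nothing in the labels tells if replicates were independent cultures or mice; the p-values therefore reflect array-to-array spread alone, perhaps technical, and precision is limited by how few arrays there are. Of the 6 defining genes of the labelled cells, Ptprc (values below) and Ikzf1 (4667 to 5880) were bright on all 12 arrays, Flt3 read 1028 to 2927, Il7r 737 to 3111 and Tcf3 521 to 981, while Kit read 37.9 to 379 and was lowest in EBF1 arrays 1 and 2. The summed intensity of 18 stromal marker genes was 13680 in EBF1 array 3 and 1008 to 3328 in the other 11 arrays, and EBF1 calls that change without that array are given both ways.

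EBF1 raised Cd24a and Ly6d, and PAX5 raised Cd24a and Enpep; no marker passed the test for a fall with either factor. With EBF1, 4 of the 19 probe sets passed higher and 0 lower (limma, Benjamini-Hochberg adjusted p under 0.05 over all probe sets), where 0.0933% of all probe sets passed higher and 0.00444% lower. With PAX5, 4 passed higher and 0 lower, where 0.464% of all probe sets passed higher and 0.0511% lower. At unadjusted p under 0.05 the marker counts were 10 with EBF1 and 6 with PAX5, where 9.97% and 8.51% of all probe sets fell under it. Read by 1 brightest probe set a gene, 2 of 9 genes rose with each factor, where 0.132% of all 18193 genes passed higher with EBF1 and 0.66% with PAX5. The median log2 change of the 9 was 0.13 with EBF1 and 0.58 with PAX5, beside 0.02 and -0.01 over all genes. All 3 EBF1 arrays lay above all 3 first-set controls for 8 marker probe sets and below them for 3, where 7.06% and 6.14% of all probe sets did so. All 3 PAX5 arrays lay above the second-set controls for 6 and below them for 1, where 8.14% and 8.77% did so. Values are intensities on the deposited linear scale, given in the order of arrays 1, 2 and 3, and log2 changes are of intensity plus 16, which understates changes of dim genes. Without EBF1 array 3, 6 marker probe sets passed with EBF1, and without PAX5 array 1, 0 passed with PAX5. With each set fitted alone, 3 passed with EBF1, and 0 when that fit also paired EBF1 arrays with controls by number.

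**Figure D1:**
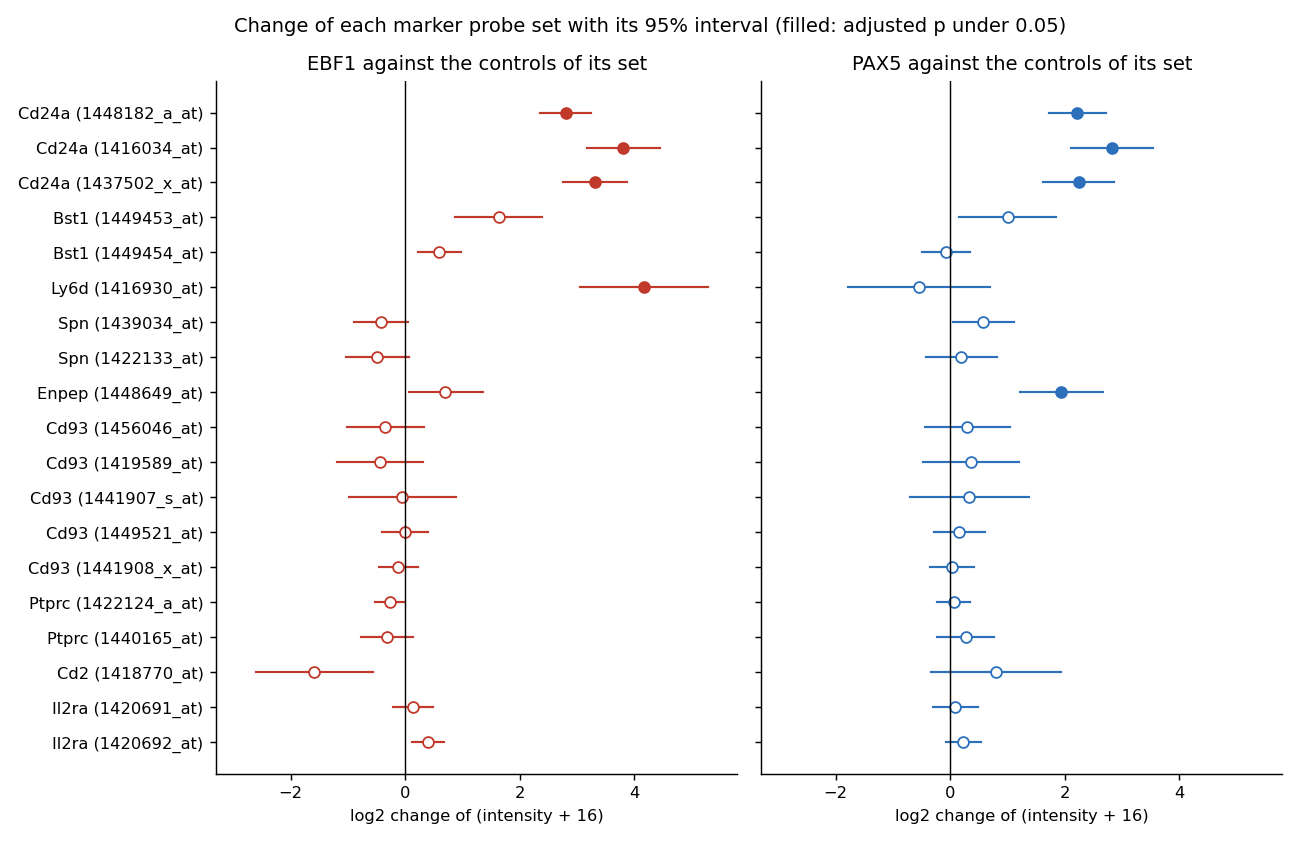
Log2 change of intensity plus 16 (horizontal axis) for each of the 19 marker probe sets, with EBF1 on the left and PAX5 on the right, as points with 95% intervals from the limma fit. Filled points passed at adjusted p under 0.05: all 3 Cd24a probe sets in both panels, Ly6d with EBF1 and Enpep with PAX5.

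Ptprc encodes CD45, the transmembrane phosphatase of all nucleated blood cells, whose B220 form is made by alternative splicing. Its bright probe set (1422124_a_at) read 6434, 6052 and 5693 in control arrays 1, 2 and 3 of the first set and 4781, 5257 and 4988 with EBF1, in the same order. The EBF1 arrays were all lower, but the change of -0.27 in log2 (95% interval -0.53 to -0.01) did not pass (adjusted p = 0.48 by limma). In the second set the controls read 6255, 5897 and 5609 and the PAX5 arrays 6571, 5853 and 5773. These overlap, with a log2 change of 0.06 (interval -0.23 to 0.35, adjusted p = 0.96). The dim probe set (1440165_at) stood at -0.32 with EBF1 and 0.27 with PAX5 and passed in neither. PAX5 array 1, at 331, was its brightest array. PAX5 arrays 2 and 3, at 160.0 and 194.1, lay below every second-set control, array 3 only narrowly (lowest control 194.7). The exons under the probes are not annotated here, so the B220 form cannot be read from these values.

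Hnrnpll, a splicing regulator that favours skipping of the variable CD45 exons, fell with PAX5, with a mean of 1515 ± 156 (SD, n = 3) in controls beside 659 ± 139 (n = 2), and its log2 change was -1.19 (SE 0.16, adjusted p = 0.019 by limma). With EBF1 it stood at 0.02 (adjusted p = 0.98). Of 8 measured partners, substrates and splicing regulators around CD45, Hnrnpll was the 1 that fell with PAX5, 0 rose, and 0 changed with EBF1. By 1 brightest probe set a gene, the shares of all genes called were 0.132% higher and 0.0055% lower with EBF1 and 0.66% higher and 0.044% lower with PAX5. Ptprj, another receptor phosphatase, stood at 0.72 (adjusted p = 0.059) and Ptpn22, a cytoplasmic phosphatase of lymphocytes, at 1.77 (0.071) with PAX5.

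Spn encodes CD43, a heavily glycosylated sialomucin that B cells lose at the small pre-B stage. Its brighter probe set (1439034_at) read 1163, 949 and 939 in first-set controls 1, 2 and 3 and 723, 573 and 1019 with EBF1, a log2 change of -0.42 (95% interval -0.90 to 0.05, adjusted p = 0.56 by limma). EBF1 arrays 1 and 2 lay below every control and array 3 among them, and without array 3 the change was -0.64 (adjusted p = 0.18). With PAX5 it read 796, 658 and 602 beside 527, 436 and 445, all 3 arrays above the controls, with a log2 change of 0.58 (interval 0.05 to 1.11) that did not pass (adjusted p = 0.53). The other probe set (1422133_at) read 147, 109 and 154 in the controls and 76.3, 68.9 and 144 with EBF1 (-0.49, adjusted p = 0.55; without array 3, -0.78 and 0.092), and 167, 121 and 178 beside 182, 182 and 166 with PAX5 (0.19, 0.93).

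Both Spn probe sets were thus lower with EBF1 and higher with PAX5 in their estimates, with no call in either comparison. The difference between the 2 changes was -1.0 (SE 0.23, adjusted p = 0.097 by limma) for 1439034_at and -0.68 (SE 0.27, 0.29) for 1422133_at. Without EBF1 array 3 these became -1.22 (adjusted p = 0.021) and -0.97 (0.046). The controls of 1439034_at were 2.17 times as bright in the first set as in the second although they look like the same hybridisations, so its level is not compared across sets. Its shift from first-set to second-set controls was -1.09 in log2, where the 5th to 95th percentile of all probe sets was -0.4 to 0.74. The difference for 1439034_at takes this shift to be the same factor at every level, which was not tested. Of 11 measured mucins, membrane linkers and glycosyltransferases around CD43, 0 rose and 0 fell with either factor. C1galt1, which builds the core O-glycan that CD43 carries, stood at 0.61 with EBF1 (adjusted p = 0.20) and 0.94 with PAX5 (0.054).

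Cd93 encodes the AA4.1 antigen, a C-type lectin-like receptor of progenitors and immature B cells. The brightest of its 5 probe sets (1456046_at) read 3864, 2032 and 4127 in first-set controls and 2961, 1802 and 2927 with EBF1. It read 3815, 2033 and 4097 in second-set controls and 4366, 3501 and 3473 with PAX5. Control array 2 was low in both sets, EBF1 array 2 was the lowest with EBF1, and the groups overlapped in both comparisons. The log2 change was -0.35 with EBF1 (95% interval -1.02 to 0.32, adjusted p = 0.77 by limma) and 0.30 with PAX5 (-0.45 to 1.05, 0.89). The other 4 probe sets ranged from -0.44 to -0.01 with EBF1 and from 0.03 to 0.37 with PAX5, and none passed, with adjusted p of at least 0.72. Without EBF1 array 3 the EBF1 changes of the 5 probe sets lay between -0.61 and 0.13, and none passed.

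Ly6d, a small GPI-anchored protein of B-directed progenitors, was the marker with the largest change. Its 1 probe set read 118, 87.7 and 95.5 in first-set controls 1, 2 and 3 and 2695, 4077 and 796 with EBF1. Every EBF1 array lay far above every control, and array 3, the array with the high stromal sum, was the lowest of the EBF1 group. The group means were 100.2 ± 15.5 and 2523 ± 1650 (SD, n = 3 each). The log2 change was 4.17 (SE 0.49, 95% interval 3.05 to 5.29, adjusted p = 0.026 by limma).

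With PAX5, Ly6d read 74.5, 75.3 and 73.5 beside 131, 98.8 and 121 in its controls. All 3 PAX5 arrays were lower, yet the log2 change of -0.55 (SE 0.55, 95% interval -1.79 to 0.70) did not pass (adjusted p = 0.87 by limma). The difference between the changes with EBF1 and PAX5 was 4.72 in log2 (SE 0.55, interval 3.47 to 5.96, adjusted p = 0.0063), the only one of the 19 that passed, where 1.05% of all probe sets did. The EBF1 call was lost when any 1 control sample, a pair of equal-numbered control arrays, was left out (adjusted p = 0.13 to 0.18 by limma). It was lost without EBF1 array 1 (0.079) or EBF1 array 2 (0.056), and with a constant of 64 in place of 16 (0.16). It was not kept without PAX5 array 1, which leaves 1 PAX5 sample (change 4.17). It was also lost with each set fitted alone (0.16) and with pairing by number added to that fit (0.22). Without EBF1 array 3 the change was 4.85 (adjusted p = 3.3e-05 by limma). The difference was lost without PAX5 array 1 (adjusted p = 0.11).

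Other genes of the Ly6 family did not follow Ly6d past the threshold. Of 15 measured, 0 rose and 0 fell with either factor, with median log2 changes of 0.00 with EBF1 and 0.07 with PAX5. Lynx1, a modulator of nicotinic receptors, read 69.7, 65.9 and 82.0 in first-set controls and 294, 434 and 134 with EBF1 (log2 change 1.64, adjusted p = 0.15 by limma). Ly6e, which is broadly expressed in blood cells, read 5842, 5979 and 6207 beside 9126, 8534 and 6904 (0.44, adjusted p = 0.31). In both genes all 3 EBF1 arrays exceeded all controls and EBF1 array 3 was the lowest of the 3, as for Ly6d.

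**Figure D2:**
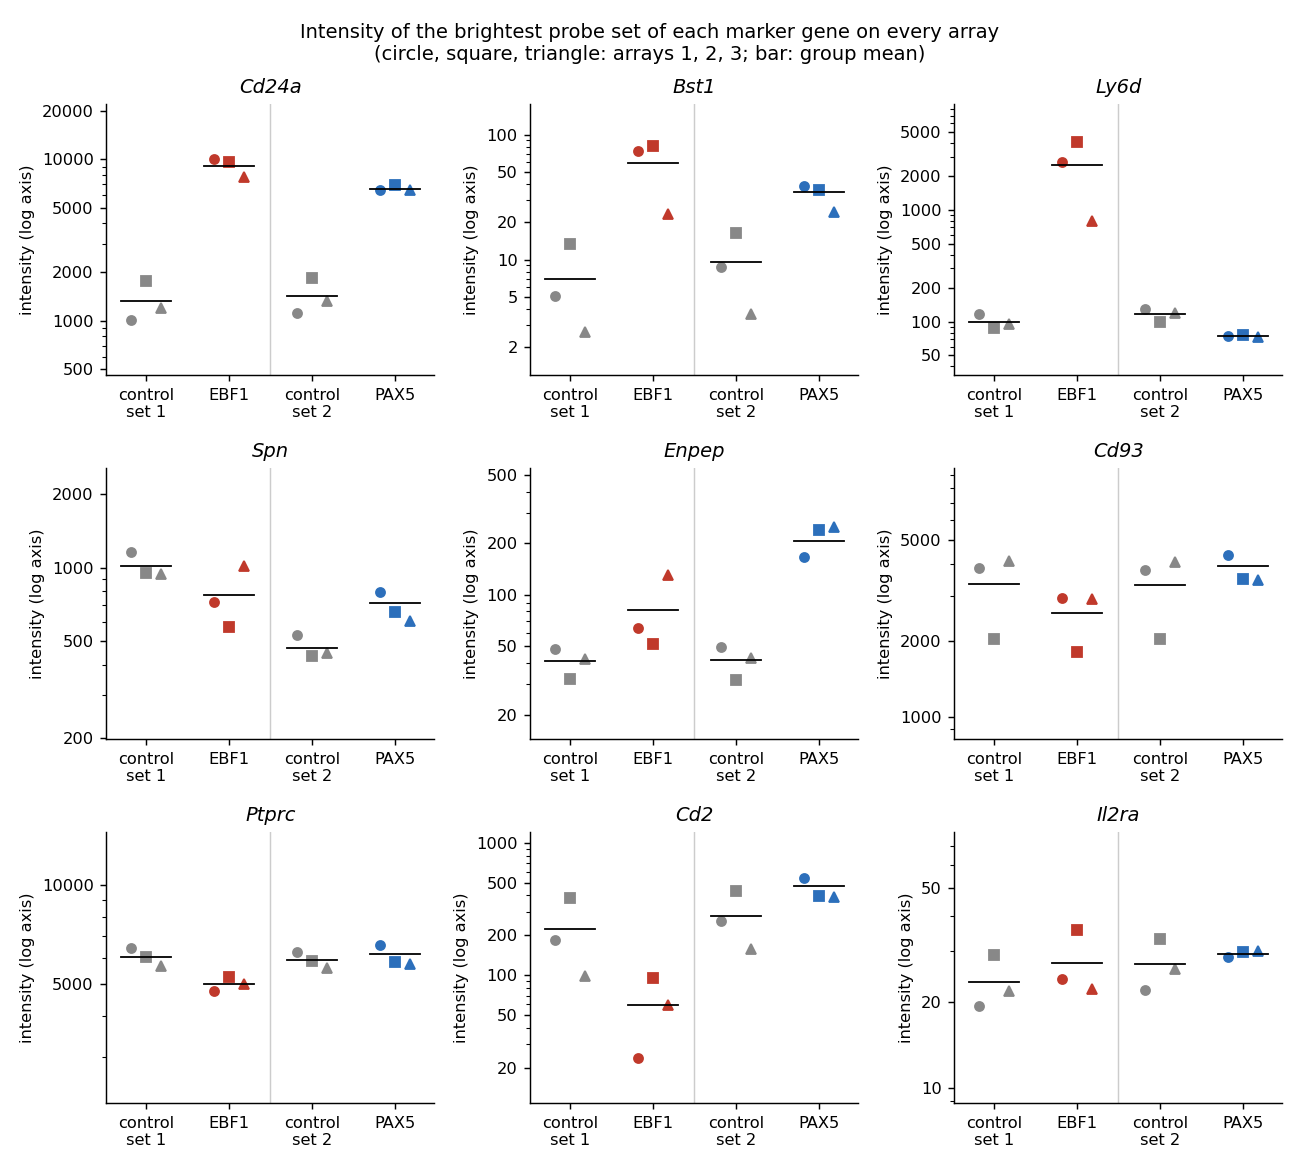
Intensity (vertical log axis, a separate scale for each gene) of the brightest probe set of each of the 9 marker genes on all 12 arrays; circles, squares and triangles are arrays 1, 2 and 3, and bars are group means, for PAX5 the mean of array 1 and the average of arrays 2 and 3. Cd24a is high in the EBF1 and PAX5 groups, Ly6d in EBF1 arrays alone at 796 to 4077, and Enpep highest in PAX5 arrays at 167 to 249.7.

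Cd24a, the heat-stable antigen gained on entry to the pro-B stage, was the 1 marker that rose with both factors. Its brightest probe set (1448182_a_at) read 1017, 1751 and 1197 in first-set controls and 10029, 9651 and 7706 with EBF1. In the second set it read 1125, 1850 and 1324 in controls and 6472, 6943 and 6440 with PAX5. No EBF1 or PAX5 array overlapped its controls, and control array 2 was the brightest control in both sets. The log2 change was 2.80 with EBF1 (SE 0.20, 95% interval 2.35 to 3.25, adjusted p = 0.0012 by limma) and 2.22 with PAX5 (SE 0.22, interval 1.72 to 2.72, adjusted p = 0.0036).

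The other Cd24a probe sets moved the same way. The probe set 1416034_at read 314, 636 and 540 in controls and 8457, 8050 and 4845 with EBF1 (log2 change 3.81, adjusted p = 0.0014 by limma), and 362, 675 and 636 beside 3752, 4142 and 3991 with PAX5 (2.82, 0.0065). The probe set 1437502_x_at, whose suffix marks probes that may bind related sequences, read 454, 790 and 497 beside 7200, 6334 and 4162 with EBF1 (3.32, 0.0014), and 592, 953 and 678 beside 3320, 3680 and 3678 with PAX5 (2.24, 0.011). EBF1 array 3 was the lowest EBF1 array in all 3 probe sets and still above every control. The 3 estimates were larger with EBF1 than with PAX5, by 0.58, 0.99 and 1.07 in log2, but these differences did not pass (adjusted p = 0.27, 0.20 and 0.12). Without EBF1 array 3 the last became 1.31 (adjusted p = 0.039).

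The Cd24a calls rested on few samples. With each set fitted alone, the EBF1 calls gave adjusted p = 0.023, 0.027 and 0.027 by limma, and with pairing by number added to that fit 0.088, 0.14 and 0.088. Without PAX5 array 1, which leaves 1 PAX5 sample, the PAX5 calls were not kept (changes 2.24, 2.88 and 2.32). Without control array 3 of both sets, counted as 1 sample, the PAX5 call of 1437502_x_at was also lost. The Cd24a changes kept their direction in every alternative run. Siglecg, an inhibitory lectin of B cells that binds CD24, read 34 to 48 in second-set controls and 940, 519 and 544 with PAX5, a rise of 3.74 in log2 (SE 0.22, adjusted p = 0.00021). With EBF1 it stood at 0.16 (adjusted p = 0.85 by limma). Its controls read 112 to 129 in the first set, although they look like the same hybridisations. The size of its rise is therefore tied to the second-set values, and its level is not compared across sets. Siglecg was the 1 of 7 measured partners and relatives of CD24 and CD93 that passed with PAX5, and 0 passed with EBF1. Over all genes, 0.66% passed higher with PAX5 and 0.132% with EBF1.

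Bst1 stayed dim in all groups. Its brighter probe set (1449453_at) read 5.11, 13.2 and 2.64 in first-set controls and 73.5, 80.4 and 23.2 with EBF1, and 8.73, 16.3 and 3.70 in second-set controls beside 39.0, 35.8 and 24.2 with PAX5. The EBF1 and PAX5 arrays lay above their controls without overlap. The log2 changes of 1.63 with EBF1 (95% interval 0.87 to 2.38, adjusted p = 0.15 by limma) and 1.0 with PAX5 (0.15 to 1.85, 0.49) did not pass. The other probe set (1449454_at) read 1.96 to 4.39 in controls and 18.8, 15.6 and 7.16 with EBF1 (0.59, adjusted p = 0.27), while with PAX5 it read 1.80 to 7.10 beside 2.81 to 7.02 (-0.08, 0.96).

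EBF1 array 3, with the highest stromal sum, was the lowest EBF1 array for both Bst1 probe sets. Without it both passed with EBF1, at log2 changes of 2.04 (adjusted p = 0.0037 by limma) and 0.76 (0.043), and for the second the change with EBF1 also exceeded that with PAX5, by 0.84 (0.034). With all 12 arrays counted separately the brighter one also passed (adjusted p = 0.049). For genes this dim the size of a log2 change depends on the constant added: over the alternatives run it ranged from 0.76 to 2.47 for the brighter probe set with EBF1.

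Enpep encodes BP-1, an aminopeptidase that appears on late pro-B and early pre-B cells, and it rose with PAX5. It read 49.8, 31.6 and 42.8 in second-set controls 1, 2 and 3 and 167, 238 and 249.7 in PAX5 arrays 1, 2 and 3. All PAX5 arrays were above all controls, with group means of 41.4 ± 9.18 (SD, n = 3) and 205.6 ± 54.4 (n = 2) and a log2 change of 1.94 (SE 0.32, 95% interval 1.22 to 2.66, adjusted p = 0.043 by limma). With EBF1 it read 64.04, 51.4 and 129.6 beside 48.6, 32.0 and 42.5. These too lay above all controls, but the log2 change of 0.70 (interval 0.06 to 1.35) did not pass (adjusted p = 0.46).

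The PAX5 call of Enpep was close to the threshold. It was lost without any 1 control sample, a pair of equal-numbered control arrays (adjusted p = 0.11 to 0.17 by limma). It was also lost without EBF1 array 1 (0.07) and with a constant of 4 or 64, and without EBF1 array 3 it stood at 0.0069. Without PAX5 array 1, which leaves 1 PAX5 sample, it was not kept (change 2.19). The difference between the changes with EBF1 and PAX5 was -1.23 (adjusted p = 0.12), and -1.56 (0.014) without EBF1 array 3. Among 7 other measured ectoenzymes 0 rose and 0 fell with either factor; Dpp4, a dipeptidyl peptidase, stood at 0.90 with PAX5 (adjusted p = 0.23).

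Stromal transcripts, from a cell type that can express Enpep and Bst1, moved with Enpep among the EBF1 arrays and among the controls. The 18 stromal genes summed to 3328, 1300 and 13680 in EBF1 arrays 1, 2 and 3, the order in which Enpep also stood. None of the 18 had its highest value at or below 16, but they did not all rise together. In EBF1 array 3 the brightest were Cxcl12 (3366), Bgn (2727), Col1a2 (2018) and Fn1 (1962). Dcn (19.1), Postn (25.9) and Timp3 (44.8) lay within the range of the first-set controls there. Without array 3 the Enpep change with EBF1 was 0.38 (adjusted p = 0.53 by limma); the part of stromal RNA in it was not tested further. Among the PAX5 arrays the stromal sum was 1065, 2164 and 2162, lowest in the array with the lowest Enpep. In first-set controls 1, 2 and 3 the sum was 2685, 1008 and 1198 beside Enpep at 48.6, 32.0 and 42.5. In second-set controls it was 2957, 1102 and 1471 beside 49.8, 31.6 and 42.8, again in the same order. The controls of the 2 sets look like the same hybridisations. The part of stromal RNA in the PAX5 values was not tested. Across the 18 stromal genes 0 rose and 0 fell with either factor, with a median log2 change of 0.81 with EBF1 and 0.01 with PAX5.

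**Figure D3:**
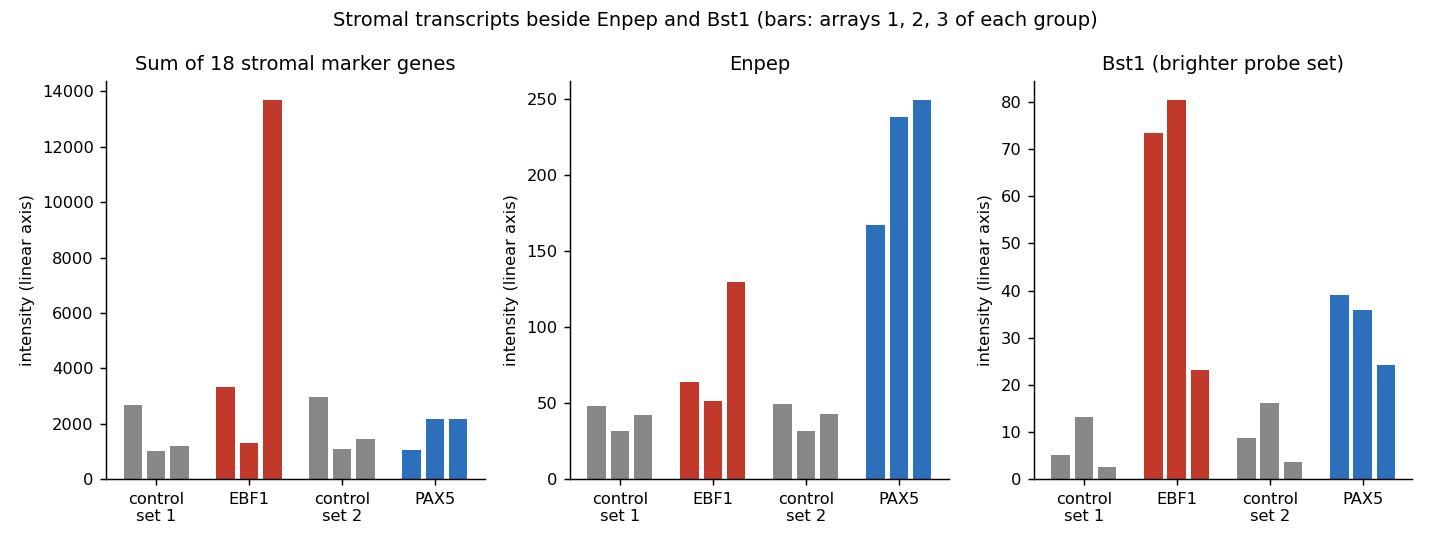
Summed intensity of 18 stromal marker genes, intensity of Enpep and intensity of the brighter Bst1 probe set (linear axes from 0), 1 bar for each of arrays 1, 2 and 3 of a group. EBF1 array 3 has the highest stromal sum, 13680, and the highest Enpep but the lowest Bst1 of the EBF1 arrays, while PAX5 arrays have the highest Enpep with stromal sums of 1065 to 2164.

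The sequence before the start of Enpep is shown because Enpep is the called marker for which RefSeq's promoter table (GRCm38.p6) has a window, and that of Spn because its window alone among the markers holds the core of the EBF1 motif. Each is the 250 bases before the annotated start, 5′ to 3′ on the gene's strand, with motif matches in capitals. Enpep lies on the minus strand at chr3:129332750-129332999 and Spn on the minus strand at chr7:127137824-127138073.
Enpep: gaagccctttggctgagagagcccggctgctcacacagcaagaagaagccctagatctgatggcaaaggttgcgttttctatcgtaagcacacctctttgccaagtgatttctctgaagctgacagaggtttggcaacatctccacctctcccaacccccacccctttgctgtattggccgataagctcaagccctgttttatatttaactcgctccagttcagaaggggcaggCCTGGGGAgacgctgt
Spn: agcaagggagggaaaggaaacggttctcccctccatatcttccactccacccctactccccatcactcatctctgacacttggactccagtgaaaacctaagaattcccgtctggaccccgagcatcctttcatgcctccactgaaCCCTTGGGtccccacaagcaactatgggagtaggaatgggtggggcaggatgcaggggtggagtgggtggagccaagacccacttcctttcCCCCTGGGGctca

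Both strands of these windows were searched for the EBF1 palindrome TCCCNNGGGA, its core CCCNNGGG, its extended part TCCCNNGG and the PAX5 core GCGTGAC, of which the first contains the next 2. The capitals in Enpep are a match to TCCCNNGG on the opposite strand, from 16 to 9 bases before the start, and 19% of all 32851 windows hold one. The capitals in Spn are matches to CCCNNGGG, which 11.8% of windows hold, from 104 to 97, from 13 to 6 and from 12 to 5 bases before the start. No marker window held the palindrome (0.779% of all windows) or the PAX5 core (1.78%). Windows of 4 of the 9 genes were searched, those of Enpep, Spn, Ptprc and Il2ra. A match is a description of letters and not a measured site.

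Cd2 and Il2ra mark the step to small pre-B cells, and neither changed past the threshold. Cd2, an adhesion molecule of lymphocytes, read 183, 381 and 98.9 in first-set controls and 23.6, 94.9 and 59.7 with EBF1. All EBF1 arrays were lower than all controls, the closest being EBF1 array 2 beside control array 3, and the log2 change was -1.59 (95% interval -2.61 to -0.57, adjusted p = 0.27 by limma). With PAX5 it read 546, 394 and 389 beside 254, 429 and 158 in controls, which overlap, with a log2 change of 0.79 (interval -0.34 to 1.93, adjusted p = 0.75).

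The difference between the 2 Cd2 changes was -2.39 in log2 (SE 0.50, interval -3.52 to -1.25), the largest after Ly6d, and did not pass (adjusted p = 0.071 by limma, and 0.054 to 0.56 over the alternatives). Of 9 measured genes of the CD2 and SLAM family 0 rose and 0 fell with either factor. Cd244a, a SLAM-family receptor of natural killer cells, read 538, 666 and 526 beside 69.6, 154 and 289 with EBF1 (log2 change -1.84, adjusted p = 0.17) and stood at -1.43 with PAX5 (0.36). Cd48, a ligand of CD2 in the mouse, stood at -0.10 and 0.25. T cells also express Cd2. The 11 T-cell marker genes summed to 1281 to 2080 in first-set controls and 1116 to 2368 with EBF1. They summed to 1402 to 2139 in second-set controls and 883 to 1220 with PAX5, with Cd4 and Cd8b1 never above 16. The 11 natural killer and innate lymphoid genes summed to 2583 to 3726 in first-set controls and 1163 to 2258 with EBF1. Their sums were 2870 to 3957 in second-set controls and 3258 to 4307 with PAX5. The part of such cells in the Cd2 values was not tested.

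Il2ra, the alpha chain of the interleukin-2 receptor, was dim throughout. Its brighter probe set (1420691_at) read 19.4, 29.3 and 21.9 in first-set controls, 24.0, 35.7 and 22.2 with EBF1, 21.9, 33.1 and 26.0 in second-set controls and 28.8, 29.9 and 30.0 with PAX5. The log2 changes were 0.13 with EBF1 (95% interval -0.22 to 0.48, adjusted p = 0.86 by limma) and 0.08 with PAX5 (-0.31 to 0.48, 0.96). The other (1420692_at) read 12.7, 17.1 and 19.9 beside 24.2, 27.5 and 28.0 with EBF1, above all controls at a log2 change of 0.39 (interval 0.12 to 0.67, adjusted p = 0.32), and stood at 0.22 with PAX5 (0.74). At intensities this near the constant of 16 a change of a rare transcript would be understated.

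Of 10 measured receptor partners and signalling genes of the interleukin-2 receptor 0 rose and 0 fell with either factor. Il2rb, the beta chain, read 72.9 to 99.96 over the first set and 64.6 to 115 over the second. Il7r, the receptor that early B cells use, read 3111, 737 and 2362 in first-set controls and 2028, 1841 and 1823 with EBF1 (log2 change 0.11), and 947, 899 and 884 with PAX5 beside 3109, 756 and 2416 (-0.95, adjusted p = 0.67 by limma).

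Other surface genes of the same stages were read from lists by their brightest probe set. Of 8 measured surface genes of pro-B and large pre-B cells 4 rose with EBF1 and 0 with PAX5: Vpreb1 and Igll1 of the surrogate light chain, and Cd79a and Cd79b of the receptor's signalling part, by 3.56 to 6.48 in log2. Of 12 surface genes of later B cells 2 rose with EBF1 and 2 with PAX5. Tnfrsf13c, the BAFF receptor, was common to both, at 3.24 with EBF1 (adjusted p = 0.030 by limma) and 4.49 with PAX5 (0.0033), with Ms4a1 (CD20) at 7.15 with EBF1 and Cd74, the class II invariant chain, at 3.84 with PAX5. No gene of either list fell. Over all genes, 0.132% passed higher and 0.0055% lower with EBF1, and 0.66% higher and 0.044% lower with PAX5. Control means of the first and second set differed for Cd79a (13.2 and 68.2), Igll1 (158.5 and 396.9) and Cd74 (964 and 398). The sizes of these changes are thus tied to 1 set each, and the levels are not compared across sets.

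Surface genes of lymphoid progenitors gave no call. Of 9 measured, 0 rose and 0 fell with either factor, with 4 at unadjusted p under 0.05 with EBF1 and 2 with PAX5 by limma, where 11.2% and 9.08% of all genes fell under it, and median log2 changes of -0.87 and -0.10. Flt3 read 1028, 1299 and 1709 with EBF1 beside 2927, 1823 and 2672 in controls (log2 change -0.87, adjusted p = 0.23 by limma). With PAX5 it read 1328, 1178 and 1168 beside 2870, 1822 and 2672 (-0.94, 0.25). Its arrays lay below all controls with both factors. Cd34, a sialomucin of progenitors, read 725, 522 and 2300 with EBF1 beside 2834, 2146 and 3103 (log2 change -1.46, adjusted p = 0.33). Cd27, a costimulatory receptor, read 288, 304 and 928 beside 1585, 676 and 1275 (-1.32, adjusted p = 0.37). For Cd34 and Cd27, EBF1 array 3 stood closest to the controls, as it did for Spn, Ly6d and Bst1. Summed marker intensities of some other cell types were lower with EBF1, while the T-cell sums given above overlapped. The sum of 14 myeloid genes was 3784 to 5714 in first-set controls and 1457 to 3035 with EBF1. That of 10 dendritic genes was 9517 to 11300 and 4295 to 7301. For 11 natural killer and innate lymphoid genes it was 2583 to 3726 and 1163 to 2258. No gene of these lists passed with EBF1, and their median log2 changes were -0.05, -0.26 and -0.36. Bright genes weigh most in a sum, so the sums do not show that each list fell as a whole. The part of such cells in the marker values was not tested.

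**Figure D4:**
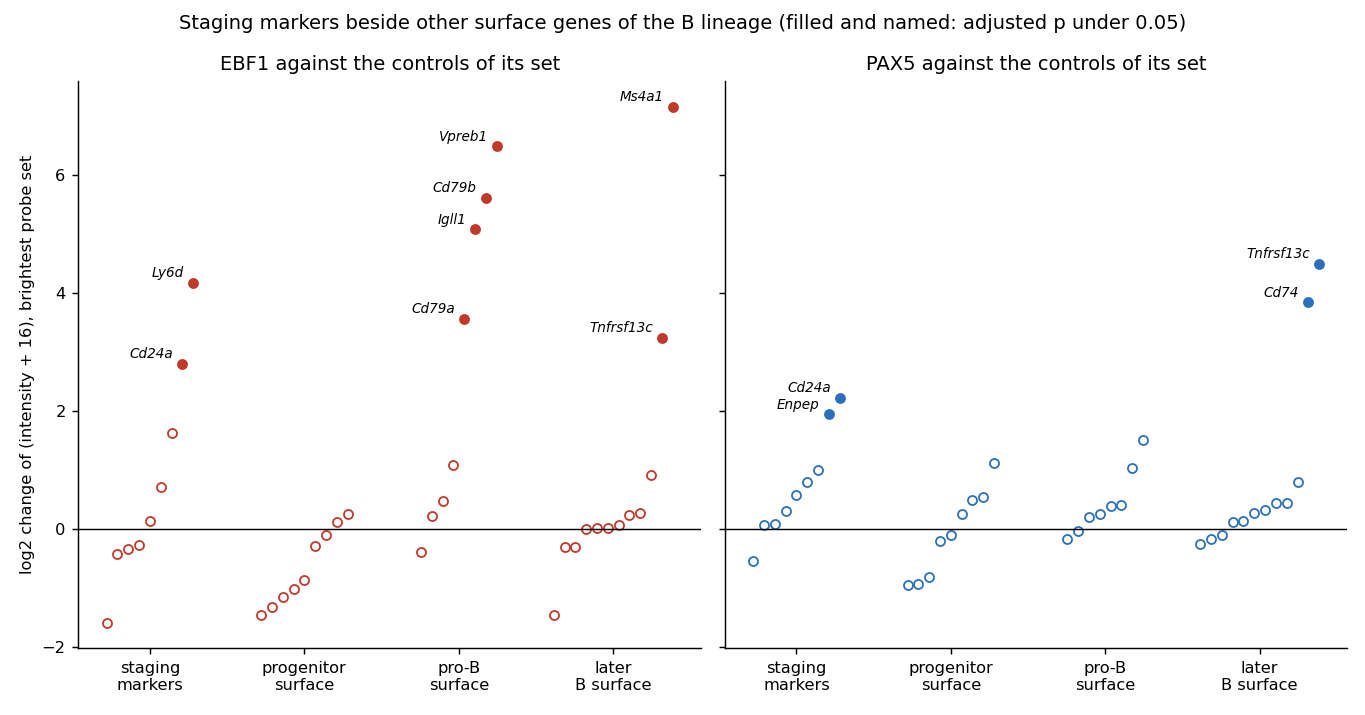
Log2 change of intensity plus 16 (vertical axis) of the 9 staging markers and of 9 progenitor, 8 pro-B and 12 later B-cell surface genes, 1 point a gene by its brightest probe set, with EBF1 on the left and PAX5 on the right. Filled, named points passed at adjusted p under 0.05: with EBF1 these lie among the staging, pro-B and later B-cell genes, and with PAX5 among the staging and later B-cell genes, where Cd24a and Tnfrsf13c appear in both panels.

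The genes with the most similar patterns were found for the 3 markers that passed, by the root mean square difference of centred log2 values over the 8 samples. For Ly6d they were Myl4, a myosin light chain (0.326), Col26a1, a collagen (0.340), and Mfsd4a, a membrane transporter (0.457), each of which rose with EBF1, by 3.99, 4.55 and 4.23 in log2. For Cd24a they were Chchd10, a mitochondrial protein (0.499), Akap12, a kinase anchor (0.518), and Hes1, a repressor (0.552). Of these Hes1 rose with both factors, by 3.28 and 3.14, and the other 2 passed with neither. For Enpep they were Phlda1 (0.331), Pwwp3b (0.346) and Fam234b (0.385), each of which rose with PAX5, by 2.12, 1.52 and 1.70. The 8 samples share 1 set of controls, and the likeness is a description with no test. These genes were picked by likeness over the same samples, so a change in the marker's direction follows from the choice.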

How the data were processed

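The deposited table gives linear intensities of probe sets, 1 column for each of 12 one-colour arrays; the authors' summary of probes and their normalization were not given in the sources used here. Per the labels, biotin-labelled cRNA was made from total RNA by the standard Affymetrix protocol. Median intensity was 55.1 to 60.6 on first-set and 65.3 to 68.9 on second-set arrays, so levels were compared within a set. The platform annotation gave 1 symbol to 34945 of 45037 probe sets, several to 932 and none to 9160; named genes come from the first kind, 18193 in all.

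Intensities were used as log2(intensity + 16). Each probe set was first freed of its mean shift between control sets; same-numbered controls were then averaged, as were PAX5 arrays 2 and 3. Group means were fitted to all probe sets with limma 3.58.1 in R 4.3.3, with 5 residual and 3.68 prior degrees of freedom, Benjamini-Hochberg adjustment over all 45037 probe sets and a threshold of 0.05. No filter on level was set and no per-sample column was left out. Deviations of equal-numbered arrays from their group means correlated at 0.35, 0.61 and 0.39 for control and EBF1 and at 0.41, 0.19 and 0.33 for control and PAX5, over probe sets of mean log2 over 8. By these correlations the numbers were taken to pair arrays, but the labels do not state a pairing and these values alone do not establish it. For PAX5 the pairing is doubtful, because arrays 2 and 3 were counted as 1 sample. The main fit is unpaired. The paired fit used each set alone, with PAX5 arrays 2 and 3 as separate samples, so it is set beside the unpaired fit of each set.

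The members, gene lists, tests and alternatives were chosen with earlier results of these data known. All member probe sets are named. Of the gene lists, those that passed are named by rule, and others after their values were seen. The latter include Ptprj, Ptpn22, C1galt1, Lynx1, Ly6e, Dpp4, Cd244a, Cd48, Il2rb, Il7r, Flt3, Cd34 and Cd27. For each member whose brightest probe set passed, the 3 genes nearest in pattern are named. Among the markers of other cell types, Ly86 (myeloid) and Itgax (dendritic) passed with PAX5, and none of 11 natural killer genes passed with either factor. Promoter windows come from RefSeq (GRCm38.p6). Sequences and figures were handled in Python 3.11.15 (pandas 2.3.3, matplotlib 3.10.9).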

Additional observations from a re-analysis of the deposited data

Results flagged for a closer look

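The change of Ly6d with EBF1 exceeded its change with PAX5 by 4.72 in log2 (SE 0.55, adjusted p = 0.0063 by limma). In the main fit it was the 1 marker that passed the test of the difference. Being the only one depended on EBF1 array 3. Without that array both Spn probe sets, Enpep, Bst1 (1449454_at) and Cd24a (1437502_x_at) passed as well. The Ly6d call was not kept without PAX5 array 1, which leaves 1 PAX5 sample (difference 4.72). Its EBF1 arrays read 2695, 4077 and 796, and its PAX5 arrays 74.5, 75.3 and 73.5. No group has more than 3 arrays, so single arrays were not tested as outliers.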

How the results depend on the processing

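Every call was recomputed under the alternatives. Where a control array was left out, the equal-numbered control of the other set was left out with it. Of the 19 marker changes, 13 kept their side of the threshold throughout with EBF1, 15 with PAX5 and 13 for the difference, and no called change turned its sign. With EBF1, 44 probe sets passed, against 14 with a constant of 64, 295 with all 12 arrays counted separately and 18 (3 of them marker probe sets) with each set fitted alone. The replicate block (equal numbers paired), added to the fit of each set alone, left 7 probe sets and 0 marker probe sets with EBF1. With PAX5 it gave 257 and the same 4 marker probe sets, but it counted PAX5 arrays 2 and 3 as 2 samples, more than the distinct samples, so it says nothing of the stability of those calls. With PAX5, 232 passed, against 153 with a constant of 4, 638 with all arrays counted, 122 with each set alone and 153 with probe sets averaged per gene. For the difference, 473 passed, against 287 with a constant of 4 and 208 with all arrays counted. Leaving out 1 array at a time gave 18 to 597 with EBF1, 50 to 263 with PAX5 and 78 to 874 for the difference, of which marker probe sets numbered 3 to 6, 0 to 4 and 0 to 6. The highest counts with EBF1 and for the difference came without EBF1 array 3 and the lowest with PAX5 and for the difference without PAX5 array 1, where 1 PAX5 sample is left and borrows its spread from the other groups. The causes were not tested. Bst1 and Il2ra read at most 80.4 on any array, so the added constant understates their changes.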
